A study of Homo sapiens with 6 samples.

Results

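The genes described here are negative feedback genes of mitogen-activated protein kinase (MAPK) signalling, with ETV5, a transcription factor gene that is induced by the same pathway. A set of 10 genes was chosen by symbol: DUSP1, DUSP2, DUSP4, DUSP5, DUSP6, DUSP10, SPRY4, SPRED1, SPRED2 and ETV5. Matching Ensembl identifiers to symbols found 7 of the 10 among the 11363 genes of the table, and the other 3, DUSP1, DUSP4 and DUSP5, were not analysed here. RNA sequencing gave their levels in NOMO-1, an established line from a human monocytic leukaemia that carries a KMT2A-MLLT3 fusion. The 2 groups were MSLN knockout NOMO-1 cells (MSLN-KO, 3 libraries) and parental NOMO-1 cells (WT, 3 libraries), and the labels name no treatment or time point for either. MSLN encodes mesothelin, a GPI-anchored surface protein. The labels do not say how the knockout was made, whether the MSLN-KO cells were 1 clone, or whether replicates were separate cultures, so what the p-values weigh is the spread among these libraries alone, which may be technical.

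When a receptor is engaged, RAS and the kinases RAF, MEK and ERK are switched on in turn, and ERK then drives transcription of genes that dampen the same cascade. Dual-specificity phosphatases of the DUSP family remove the activating phosphates from ERK, JNK or p38, while Sprouty and SPRED proteins act further up, at RAS and RAF. ETV5 belongs to the PEA3 group of ETS transcription factors, and its transcript, like those of DUSP6 and SPRY4, is widely used as a readout of ERK activity. Protein phosphorylation was not measured, so transcript levels are all that is described.

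Values are CPM, the reads of a gene relative to the size of its library, after the authors' TMM scaling. Log2 changes are MSLN-KO minus WT on the log2(CPM + 1) scale, where the added 1 makes the changes of weakly expressed genes look smaller, and a gene is said to have risen or fallen where its limma adjusted p (Benjamini-Hochberg over all 11363 genes, two-sided) was under 0.05. Reads in the listed genes numbered between 25230229 and 30804446 per library in MSLN-KO and between 23665824 and 25765425 in WT. The targeted gene, MSLN, stood at 45.7, 46.9 and 45.3 CPM in the MSLN-KO libraries and at 153.2, 122.9 and 105.9 CPM in the WT libraries, lower in the direction of the labels. All 14 markers of monocytic leukaemia were in the table, 3 of them higher and 8 lower in MSLN-KO. That is 78.6% called, against 45.7% of all genes (22.4% higher and 23.3% lower), in a list drawn up with earlier results of these data known. FCGR1A, CD33 and MEIS1 were the higher ones, and SPI1, HOXA9 and PTPRC were not called. The summed level of the 14 markers was 7848 to 8297 CPM in MSLN-KO and 17161 to 17876 CPM in WT. The lysozyme gene LYZ made up most of that sum, at 6081 CPM in MSLN-KO and 14540 CPM in WT, and the granule enzyme gene MPO stood at 45.7 CPM in MSLN-KO and 744.4 CPM in WT. Each list of markers of another lineage had 1 gene in the table: NKG7 of 7 (T and NK), CD79B of 5 (B), ITGA2B of 7 (erythroid or megakaryocytic), KRT18 of 9 (epithelial or mesothelial) and PECAM1 of 8 (stromal or endothelial). Of these, CD79B stood at 3.93 CPM in MSLN-KO and 14.4 CPM in WT, and ITGA2B at 7.07 CPM in MSLN-KO and 1.73 CPM in WT. Every gene in the table reached 4.90 CPM in at least 3 libraries, CD79B in WT libraries only and ITGA2B in MSLN-KO libraries only. NKG7 (32.7 CPM in MSLN-KO and 39.6 CPM in WT) and PECAM1 (383 CPM in MSLN-KO and 518 CPM in WT) fell, and KRT18 was not called. The part of this marker shift in the results was not tested. Lower levels of a transcript in bulk RNA can reflect fewer cells that make it or less of it per cell, and these cannot be told apart.

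Of the 7 genes, ETV5 and DUSP6 rose in MSLN-KO cells, SPRY4 fell, and DUSP2, DUSP10, SPRED1 and SPRED2 did not pass the test. By the ratio of mean CPM, MSLN-KO over WT, ETV5 was at 2.05, DUSP6 at 1.21 and SPRY4 at 0.677. The 3 calls among 7 genes (42.9%) compare with 45.7% of all genes, with 22.4% called higher and 23.3% called lower, so the share of these genes that changed was close to the background. Their median log2 change was -0.11, against 0.01 over all genes. The MSLN-KO and WT ranges stood apart in 3 of the 7 genes and in 54.7% of all genes: MSLN-KO was above WT in 2 of the 7 (26.6% of all genes) and below it in 1 (28.1% of all genes). No gene in the table was below 4.90 CPM in more than 3 libraries. DUSP2 reached that level in 1 MSLN-KO and 2 WT libraries, and the other 6 genes reached it in every library.

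**Figure D1:**
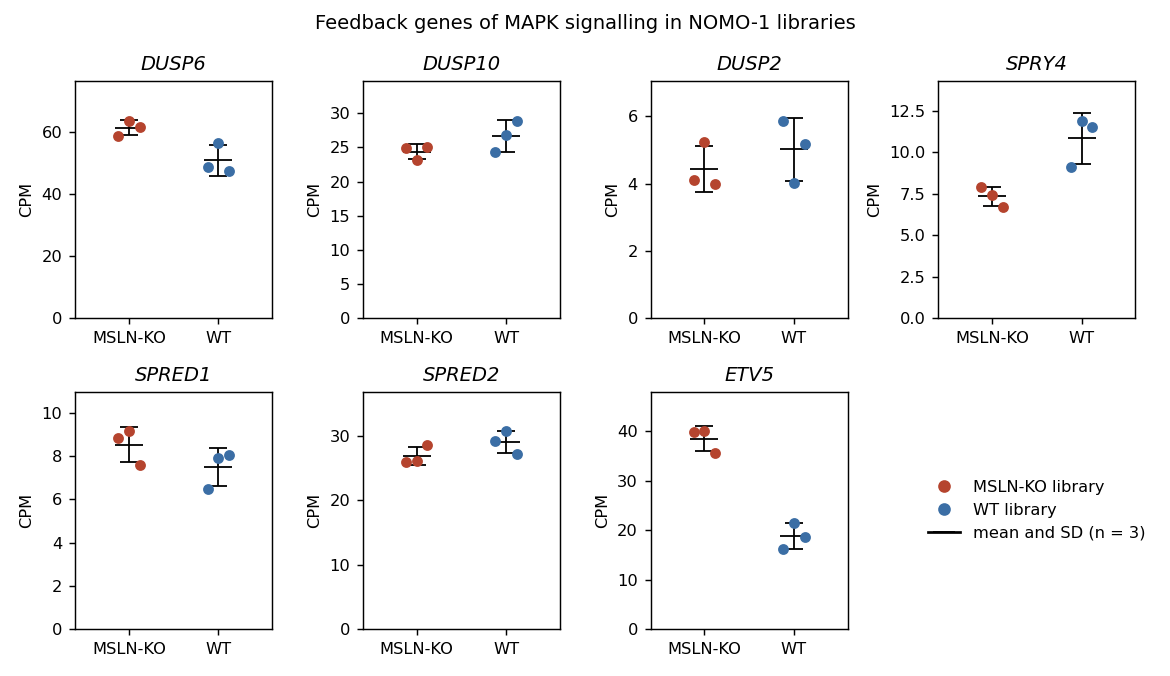
Level of each of the 7 genes in CPM (vertical axis, from 0) in the 3 MSLN-KO and the 3 WT libraries; each point is a library, and the bar and whiskers give the mean and SD of the group. The groups do not overlap for DUSP6, SPRY4 and ETV5, and they overlap for DUSP10, DUSP2, SPRED1 and SPRED2.

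DUSP6 encodes a cytoplasmic phosphatase that acts on ERK with high selectivity. The gene (ENSG00000139318.8, protein coding) lies on GRCh38 chromosome 12, 89347232 to 89353271, minus strand. It was read at 58.8, 63.7 and 61.7 CPM in the MSLN-KO libraries and at 48.7, 56.6 and 47.3 CPM in the WT libraries. The groups did not overlap, and WT replicate 2 lay nearest to the MSLN-KO group. Mean levels were 61.4 ± 2.44 CPM in MSLN-KO and 50.9 ± 4.99 CPM in WT (SD, n = 3 each), a log2 change of 0.27 (SE 0.07, 95% interval 0.11 to 0.43, limma adjusted p = 0.00853). A larger rise was seen in 1920 of the 11363 genes. The call held without each library in turn, with an adjusted p as high as 0.0486 without WT replicate 3.

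SPRY4 encodes a Sprouty protein that restrains signalling from receptor tyrosine kinases to ERK. The gene (ENSG00000187678.10, protein coding) lies on chromosome 5, 142310427 to 142326455, minus strand. It stood at 7.89, 7.42 and 6.72 CPM in the MSLN-KO libraries and at 9.10, 11.9 and 11.5 CPM in the WT libraries. Every MSLN-KO library was below every WT library, and WT replicate 1 lay nearest to the MSLN-KO group. The means were 7.34 ± 0.585 CPM in MSLN-KO and 10.9 ± 1.53 CPM in WT (SD, n = 3 each), which gave a log2 change of -0.50 (SE 0.11, 95% interval -0.74 to -0.26, limma adjusted p = 0.00263). These levels rest on 197 to 214 reads per library in MSLN-KO and 223 to 308 in WT.

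DUSP6 and SPRY4 are both known as ERK-induced genes and moved in opposite directions, so the 250 bases before the RefSeq start of each are shown, on GRCh38.p14 and read 5′ to 3′ on the gene's strand (minus for both). The RefSeq start is not the outermost start of the GENCODE gene: it lies 770 bases inside that gene for DUSP6 and 2208 bases inside it for SPRY4, so both windows fall within the GENCODE gene bounds. Positions of matches are counted from the RefSeq start. Capitals mark matches on either strand to longer forms of the site bound by ETS factors. These are spelled CCGGAA in one form and, overlapping it, CGGAAG in the other. Both forms contain GGAA, which was not marked by itself and also occurs in small letters in both windows. Capitals also mark the AP-1 element, spelled TGANTCA, and the core of the cyclic AMP response element, spelled TGACG, and the CCAAT box.
DUSP6, chr12:89352502-89352751: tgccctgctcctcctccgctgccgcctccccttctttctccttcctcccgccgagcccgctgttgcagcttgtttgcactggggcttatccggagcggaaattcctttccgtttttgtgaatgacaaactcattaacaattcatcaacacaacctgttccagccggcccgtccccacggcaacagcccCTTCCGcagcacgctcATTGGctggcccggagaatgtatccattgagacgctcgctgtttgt
SPRY4, chr5:142324248-142324497: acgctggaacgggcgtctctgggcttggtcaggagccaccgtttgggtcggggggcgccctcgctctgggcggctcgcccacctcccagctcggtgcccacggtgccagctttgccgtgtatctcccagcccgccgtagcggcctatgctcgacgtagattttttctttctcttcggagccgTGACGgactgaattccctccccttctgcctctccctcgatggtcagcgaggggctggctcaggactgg
The DUSP6 window held 1 match to the second ETS form, in the reverse direction, 62 bases before the RefSeq start, and 1 to the CCAAT box, 46 bases before it. The only match in the SPRY4 window was the core of the cyclic AMP response element, 68 bases before the RefSeq start. Over all 35116 RefSeq windows of the same length, 14.5% held the first ETS form, 16.5% the second, 6.57% the AP-1 element, 21.2% the cyclic AMP core and 32.0% the CCAAT box. Windows were found for 6 of the 7 genes, all but ETV5. Those of DUSP2, DUSP10, SPRED1 and SPRED2 held no match to the ETS forms, the AP-1 element or the cyclic AMP core, while 1 of the pair of DUSP10 windows held 4 CCAAT boxes and 1 of the pair of SPRED2 windows held 2. A match is a description of letters and not of binding.

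ETV5 showed the largest change of the 7 genes. The gene (ENSG00000244405.8, protein coding) lies on chromosome 3, 186046308 to 186110318, minus strand. It was at 39.93, 40.003 and 35.59 CPM in the MSLN-KO libraries and at 16.2, 21.5 and 18.6 CPM in the WT libraries. No MSLN-KO library came near the WT range. Means of 38.5 ± 2.53 CPM in MSLN-KO and 18.8 ± 2.62 CPM in WT (SD, n = 3 each) gave a ratio of 2.05 and a log2 change of 1.00 (SE 0.09, 95% interval 0.80 to 1.21, limma adjusted p = 2.44e-06). Only 202 of the 11363 genes had a larger rise. DGKG, a diacylglycerol kinase gene on the same strand, overlaps ETV5 by 4651 bases in GENCODE release 29, and how reads in the overlap were assigned is not given in the sources used here. DGKG went the other way, at 29.1 ± 1.87 CPM in MSLN-KO and 38.1 ± 1.73 CPM in WT (SD, n = 3 each), a log2 change of -0.38 (SE 0.07, limma adjusted p = 0.000761).

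Levels over the 6 libraries, as log2(CPM + 1) differences from the WT mean, lay nearest to those of ETV5 in WDR31 and ICAM4. Their Euclidean distances from ETV5 were 0.0986 and 0.176, against a median of 1.77 over all genes. As they were picked as the nearest out of all genes, small distances were bound to be found, and nothing was tested. WDR31 and ICAM4 reached 4.90 CPM in MSLN-KO libraries only, so their presence in the table rests on that group. WDR31 stood at 6.58 ± 0.556 CPM in MSLN-KO and 2.84 ± 0.542 CPM in WT (SD, n = 3 each). ICAM4, a gene of the intercellular adhesion molecule family, stood at 6.89 ± 0.697 CPM in MSLN-KO and 3.09 ± 0.652 CPM in WT (SD, n = 3 each).

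Within a library, the ratio of one gene's CPM to another's does not depend on the scaling of that library, though it does depend on the genes' lengths. The ratio of ETV5 to SPRY4 was 5.06, 5.39 and 5.29 in the MSLN-KO libraries and 1.78, 1.80 and 1.61 in the WT libraries. That of DUSP6 to SPRY4 was 7.46, 8.58 and 9.18 in MSLN-KO and 5.35, 4.75 and 4.10 in WT. For ETV5 to DUSP6 it was 0.679, 0.628 and 0.577 in MSLN-KO and 0.334, 0.380 and 0.393 in WT. These pairs were chosen after the values were seen, so no test is given. Since ETV5 and DUSP6 stood higher and SPRY4 lower in every MSLN-KO library, the ratios to SPRY4 had to stand apart and only restate those levels. The ratio of ETV5 to DUSP6, which both rose, was higher in every MSLN-KO library than in any WT library.

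**Figure D2:**
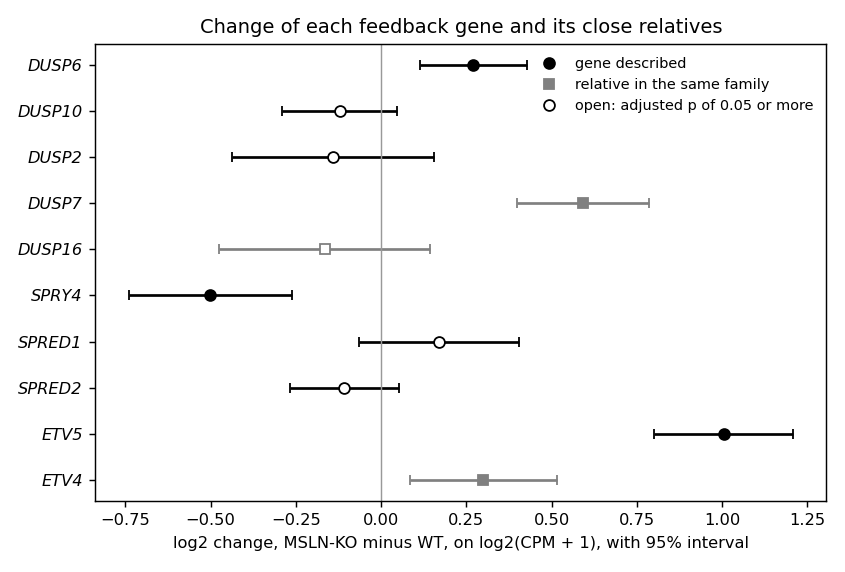
Log2 change, MSLN-KO minus WT on log2(CPM + 1), with its 95% interval (horizontal axis) for the 7 genes (circles) and 3 relatives of the same families (grey squares); filled symbols passed an adjusted p of 0.05. ETV5 lies farthest to the right at 1.00, SPRY4 farthest to the left at -0.50, and the intervals of DUSP10, DUSP2, SPRED1, SPRED2 and DUSP16 include 0.

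The other phosphatases among the 7 did not pass the test. DUSP10 encodes a phosphatase that prefers JNK and p38, and stood at 24.98, 23.20 and 25.04 CPM in the MSLN-KO libraries and 24.4, 26.8 and 28.9 CPM in the WT libraries. The lowest WT library lay within the MSLN-KO range, and the log2 change was -0.12 (95% interval -0.29 to 0.05, limma adjusted p = 0.224). DUSP2, a nuclear phosphatase first described in activated blood cells, stood at 4.12, 5.24 and 3.99 CPM in MSLN-KO and 5.88, 4.02 and 5.18 CPM in WT. Its log2 change of -0.14 had an interval of -0.44 to 0.15 (limma adjusted p = 0.427), a ratio of 0.739 to 1.11 on that scale. It was read 104 to 144 times per library.

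SPRED1 and SPRED2 bring neurofibromin, the product of NF1, to the membrane, where it switches RAS off. SPRED2 (chromosome 2) stood at 26.0, 26.1 and 28.5 CPM in the MSLN-KO libraries and 29.2, 30.7 and 27.2 CPM in the WT libraries. MSLN-KO replicate 3 lay inside the WT range, and the log2 change was -0.11 (95% interval -0.27 to 0.05, limma adjusted p = 0.252). SPRED1 stood at 8.86, 9.15 and 7.60 CPM in MSLN-KO and 6.49, 7.93 and 8.05 CPM in WT. These ranges overlapped too, and the log2 change was 0.17 (SE 0.11, 95% interval -0.07 to 0.40, limma adjusted p = 0.223). Their partner NF1, named after its values were seen, had a log2 change of -0.19 and was not called.

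SPRED1 lies on chromosome 15 (38252326 to 38357249, plus strand), a chromosome on which genes called lower in MSLN-KO were in the majority. Of the 370 other chromosome 15 genes with a position in the annotation, 308 fell and 13 rose, with a median log2 change of -0.57. Over all 11363 genes, 23.3% fell and 22.4% rose, with a median of 0.01. Between 30 and 65 Mb, where SPRED1 lies, 6 of 176 rose and 21 were not called, the others fell, and the median was -0.56. SPRED1 was thus near the top of its chromosome, with 16 of the 370 genes (4.32%) showing a higher log2 change. With the chromosome's median subtracted from its genes, SPRED1 stood 0.74 above it in log2 units (SE 0.11, limma adjusted p = 0.000104), with the median taken as known without error. That p weighs the spread among libraries and not the spread among the chromosome's other genes, whose quartiles of log2 change were -0.76 and -0.34. The level of SPRED1 itself in CPM did not pass the test, so the difference is one from the chromosome's median.

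Genes beside SPRED1 were called lower to its right, while the nearest to its left was not called. The nearest to the right, FAM98B, begins 96.9 kb away and stood at 7.45 ± 1.21 CPM in MSLN-KO and 11.6 ± 1.95 CPM in WT (SD, n = 3 each), a fall of 0.58 on the log2 scale (limma adjusted p = 0.00305). RASGRP1, 131 kb away, encodes an exchange factor that loads RAS with GTP and so acts against SPRED1. It was at 6.06, 5.95 and 6.53 CPM in the MSLN-KO libraries and 10.4, 13.7 and 12.3 CPM in the WT libraries, and fell by 0.87 in log2 units (SE 0.11, limma adjusted p = 2.57e-05). To the left, CDIN1, 1442 kb away, was not called (log2 change 0.11, limma adjusted p = 0.368), and the next gene, DPH6, fell by 0.56 (limma adjusted p = 0.000737). MAP2K1, which encodes the kinase MEK1, also lies on chromosome 15, at 33.1, 34.1 and 30.2 CPM in MSLN-KO and 58.2, 58.4 and 58.4 CPM in WT. It fell by 0.83 in log2 units (SE 0.06, limma adjusted p = 3.71e-07).

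**Figure D3:**
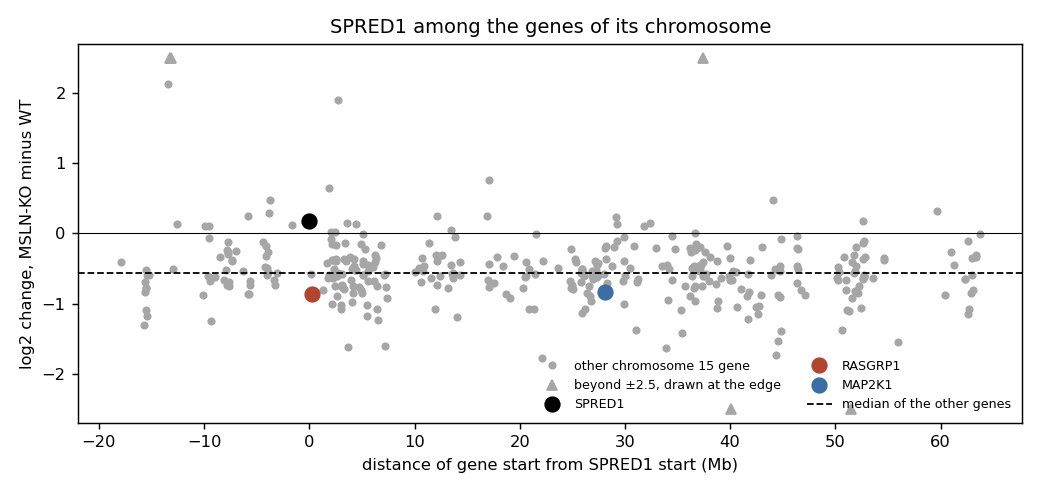
Log2 change, MSLN-KO minus WT (vertical axis), of every chromosome 15 gene in the table against the distance of its start from that of SPRED1 in Mb (horizontal axis); each point is a gene, and the dashed line is the median of the genes other than SPRED1. SPRED1 lies above 0 at 0.17, while the dashed line is at -0.57 and RASGRP1 and MAP2K1 lie at -0.87 and -0.83.

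The nearest genes in the table on either side of the 3 called genes changed less than ETV5 and SPRY4 did. Next to ETV5, TRA2B had a log2 change of -0.16 (limma adjusted p = 0.0397) and TBCCD1 one of -0.10 (0.297). Beside SPRY4, NDFIP1 had a log2 change of 0.16 (limma adjusted p = 0.0812) and ARHGAP26 one of 0.18 (0.0471), both opposite in sign to SPRY4. POC1B, 66.4 kb from DUSP6, rose by 0.26 (limma adjusted p = 0.0101), close to the 0.27 of DUSP6 itself. TMTC3, 1147 kb away on the other side, had a log2 change of -0.15 (0.0679).

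Levels can be set against each other only per length. Divided by exonic length in GENCODE release 29, which need not be the authors' annotation, DUSP6 was the most abundant of the 7 in both groups, at 13.3 CPM per kb in MSLN-KO and 10.98 in WT. DUSP10 followed at 8.38 CPM per kb in MSLN-KO and 9.16 in WT. ETV5 came next in MSLN-KO at 6.64 CPM per kb, ahead of SPRED2 at 5.21, and in WT the order of this pair was the other way, with ETV5 at 3.24 and SPRED2 at 5.63. In neither group did the ranges of ETV5 and SPRED2 overlap. DUSP2 stood at 2.30 CPM per kb in MSLN-KO and 2.60 in WT, where its range overlapped that of ETV5. SPRY4 was at 1.12 CPM per kb in MSLN-KO and 1.65 in WT, and SPRED1 at 1.03 in MSLN-KO and 0.907 in WT. The ranges of SPRY4 and SPRED1 overlapped in MSLN-KO and stood apart in WT. Spread among replicates ran from 3.98% (DUSP6) to 15.4% (DUSP2) in MSLN-KO and from 6.08% (SPRED2) to 18.6% (DUSP2) in WT, as coefficients of variation.

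Relatives of these genes changed unevenly. DUSP7, an ERK phosphatase closely related to DUSP6, stood at 37.2, 41.2 and 32.6 CPM in the MSLN-KO libraries and 26.2, 22.6 and 23.7 CPM in the WT libraries, and rose by 0.59 in log2 units (SE 0.09, limma adjusted p = 0.000144). DUSP16, a phosphatase of JNK and p38 like DUSP10, had a log2 change of -0.17 (95% interval -0.47 to 0.14, limma adjusted p = 0.369). Without WT replicate 1 it was called lower (log2 change -0.35, limma adjusted p = 0.0311, in a range of adjusted p up to 0.775 over the alternatives). Among the 15 other ETS genes in the table, ETV4, the PEA3-group relative of ETV5, rose to 6.62 ± 0.494 CPM in MSLN-KO, against 5.18 ± 0.185 CPM in WT (SD, n = 3 each; log2 change 0.30, limma adjusted p = 0.0265). This call was lost without WT replicate 1, WT replicate 3 or MSLN-KO replicate 1 (limma adjusted p = 0.0724, 0.0622 and 0.115, in a range of 0.00599 to 0.115 over the alternatives). ELK3 (log2 change -0.22) and ELF1 (-0.17) fell, and the other 12 were not called (20% called, against 45.7% of all genes). The call of ELK3 was lost without any library but WT replicate 1, and that of ELF1 without MSLN-KO replicate 1 (limma adjusted p of at most 0.107 and 0.091).

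Of 8 atypical DUSPs, which lack the MAPK-binding domain, 4 rose and 0 fell: DUSP28, DUSP22, DUSP12 and DUSP3, with log2 changes of 0.54, 0.34, 0.27 and 0.24. That is 50% called, against 45.7% of all genes (22.4% higher and 23.3% lower). DUSP3 stood at 136 ± 2.15 CPM in MSLN-KO and 115.1 ± 3.15 CPM in WT (SD, n = 3 each). In a list of 19 genes drawn up as other feedback or brake genes of the cascade, 12 were in the table. Of these, 3 rose and 4 fell (58.3% called, against 45.7% of all genes). PEBP1, which encodes an inhibitor of the cascade, fell to 86.6 ± 4.33 CPM in MSLN-KO, against 135.7 ± 11.1 CPM in WT (SD, n = 3 each; log2 change -0.64, limma adjusted p = 6.64e-06). TRIB1 (log2 change -0.58), the receptor antagonist gene LRIG1 (-0.49) and the RAS GTPase-activating gene RASA1 (-0.21) fell, the last not without MSLN-KO replicate 2 (limma adjusted p = 0.0512). RGS2 (log2 change 0.55, at 4.90 CPM or more in MSLN-KO libraries but in no WT library), ZFP36 (0.35) and RASA3 (0.34) rose. SPRY1, SPRY2, SPRY3 and SPRED3 were not analysed here.

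In the ERK cascade itself, 10 of 33 genes rose and 6 fell (48.5% called, close to the 45.7% of all genes), with a median log2 change of 0.04. RPS6KA2, which encodes an RSK kinase activated by ERK, showed the largest rise of the list, to 31.9, 31.4 and 31.2 CPM in the MSLN-KO libraries against 12.3, 12.2 and 8.80 CPM in the WT libraries (log2 change 1.44, SE 0.11, limma adjusted p = 2.78e-07). KSR1, a scaffold for RAF, MEK and ERK, stood at 23.5 ± 2.45 CPM in MSLN-KO and 12.8 ± 0.746 CPM in WT (SD, n = 3 each), a rise of 0.83. The kinase gene RPS6KA4 and the adaptor gene GAB2 rose by 0.58 and 0.52. Beside RASGRP1 and MAP2K1, HRAS (log2 change -0.32) and GAB1 (-0.20) fell. The call of HRAS was lost without WT replicate 3 or MSLN-KO replicate 3 (limma adjusted p = 0.0856 and 0.0533), and that of GAB1 without any library but WT replicate 1 (at most 0.148).

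Among 24 kinases and adaptors of the JNK, p38 and ERK5 cascades, 4 rose and 5 fell (37.5% called, against 45.7% of all genes). The p38 genes did not all move one way. MAPK12 rose by 0.61 on the log2 scale, to 15.5 ± 0.307 CPM in MSLN-KO against 9.83 ± 1.45 CPM in WT (SD, n = 3 each), while MAPK14 fell to 144.2 ± 1.05 CPM in MSLN-KO against 194 ± 2.59 CPM in WT (log2 change -0.42) and MAPK13 fell by 0.74. The JNK genes MAPK9 (log2 change 0.29) and MAPK8 (0.20) and the kinase gene MAP2K7 (0.25) rose, and TAB2 (-0.22) and MAP3K8 (-0.27) fell. The calls of MAPK8, MAP2K7 and MAP3K8 were each lost without 1 of several libraries: MAPK8 without any but WT replicate 2, MAP2K7 without WT replicate 3, MSLN-KO replicate 1 or MSLN-KO replicate 2, and MAP3K8 without any but WT replicate 1 (limma adjusted p of at most 0.129, 0.146 and 0.209).

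Of a list of 40 genes transcribed in response to ERK, 24 were in the table, of which 13 rose, 8 fell and 3 were not called, with a median log2 change of 0.33. That is 87.5% called, against 45.7% of all genes (22.4% higher and 23.3% lower). The list was drawn up with earlier results of these data known, so the share is a description and no test. The table's minimum also bears on the number called. IER3, FOSB and EGR1 reached 4.90 CPM in MSLN-KO libraries only and CXCL8 in WT libraries only. The presence of each of these 4 in the table rests on the group named. A gene below that level in both groups is absent, and the other 16 genes of the list were not analysed here. IER3 stood at 6.02, 5.73 and 6.16 CPM in the MSLN-KO libraries and 2.61, 1.97 and 1.43 CPM in the WT libraries, and rose by 1.23 on the log2 scale. FOSB (log2 change 1.07), the pleckstrin-homology gene PHLDA1 (0.87) and the zinc-finger gene EGR1 (0.78) rose as well. The chemokine gene CXCL8 fell to 4.20 ± 0.243 CPM in MSLN-KO against 8.89 ± 1.67 CPM in WT (SD, n = 3 each; log2 change -0.91), and FOS (-0.46), PLAUR (-0.38) and KLF4 (-0.31) also fell. Rises of ETV5 and DUSP6 and a fall of SPRY4 were thus accompanied by changes in both directions among other genes known to be induced by ERK. The limma adjusted p of these 8 named target genes was at most 0.00263.

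Receptors that feed the cascade in myeloid cells changed in 10 of 13 cases, with 5 higher and 5 lower (76.9% called, against 45.7% of all genes). AXL reached 4.90 CPM in WT libraries only, so its presence in the table rests on that group. The receptor tyrosine kinase gene AXL fell to 1.83 ± 0.51 CPM in MSLN-KO against 7.33 ± 1.51 CPM in WT (SD, n = 3 each; log2 change -1.55), and its relative MERTK fell to 8.45 ± 1.08 CPM in MSLN-KO against 19.5 ± 4.48 CPM in WT (-1.10). IGF1R, on chromosome 15, fell by 0.88 and KIT, the receptor for stem cell factor, by 0.67. IL3RA (log2 change 0.76), FGFR1 (0.60), FLT3 (0.45) and CSF2RA (0.35) rose, FLT3 to 232.9 ± 2.98 CPM in MSLN-KO against 170.7 ± 20.5 CPM in WT (SD, n = 3 each). The limma adjusted p of these 8 receptor genes was at most 0.00114. Over the 8 lists, 41 of 131 genes rose and 30 fell (54.2% called, against 45.7% of all genes, 22.4% higher and 23.3% lower). All 8 lists, that of the receptors included, were drawn up with earlier results of these data known. Their shares are therefore descriptions, and an excess over all genes may come from how genes were chosen. Whether any of these changes bears on the feedback genes was not tested.

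**Figure D4:**
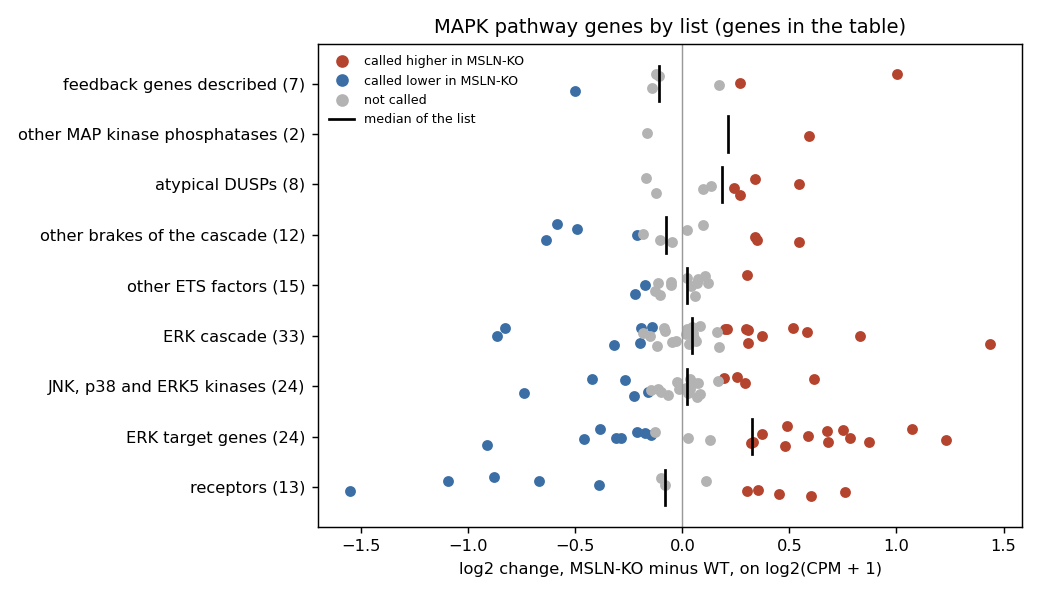
Log2 change, MSLN-KO minus WT on log2(CPM + 1) (horizontal axis), of each gene of the 7 described and of the 8 other lists (rows, with the number of genes in the table); points are genes, coloured by their call, and the black bar is the median of the list. The median of the ERK target genes is 0.33, with 13 called higher and 8 called lower, and the median of the ERK cascade is 0.04.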

How the data were processed

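RNA of 3 MSLN-KO and 3 WT libraries of NOMO-1 was sequenced. Per the labels' protocols, ribosomal RNA was removed and stranded libraries were prepared from total RNA. Per the submitters' processing notes, the tools were STAR, featureCounts and edgeR, on GRCh38/hg38. Tool versions, annotation release and strand setting: not given in the sources used here. Values deposited by the authors for 11363 genes are named TMM-normalized by the table's own title, and they were read as CPM from their column sums, which lay near those of CPM. In each column 100% of values were whole multiples of 1 step, within 0.01 of it, and the read numbers given rest on that step. A gene's precision is limited by its reads, and these cover counting error only.

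Identifiers were matched to symbols for 11354 genes, and 11314 had a position in GENCODE release 29 (GRCh38, 1-based). The model, run in limma 3.58.1 (R 4.3.3), took log2(CPM + 1) of every gene with group as its sole term and a trended eBayes prior. P-values, two-sided, were adjusted by Benjamini-Hochberg, with calls under 0.05. The fit was tested on simulated data. Replicates were not duplicates of each other: chi-square per degree of freedom between them was 2.71 to 14.8. Promoter windows came from RefSeq (GRCh38.p14).

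The 10 genes and the gene lists were chosen with earlier results of these data known. Named genes are the 7 found, MSLN, up to 4 called genes in each direction per pathway list, close relatives, and the 3 genes nearest to ETV5, of which 1 is not reported here. Alternatives changed the pseudocount, low-value filter, scaling, variance trend, replicate block and chromosome 15 median, and left out each library.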

Additional observations from a re-analysis of the deposited data

How the results depend on the processing

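ETV5 and DUSP6 remained called higher and SPRY4 called lower under all 13 alternatives run, with log2 changes of 0.88 to 1.10, 0.22 to 0.35 and -0.61 to -0.36. Subtracting the chromosome 15 median, 1 of the 13, shifts only genes of that chromosome. It could not move the log2 changes of ETV5, DUSP6 and SPRY4 or of other genes elsewhere. DUSP2 (12 alternatives, since a minimum mean of 5 CPM removed it), DUSP10 and SPRED2 were never called. SPRED1 was called once, with the chromosome 15 median subtracted (0.74), which brought the count called higher to 3, against 2. The median log2 change of the 7 genes was 0.031 with a minimum mean of 5 CPM, against -0.11, since DUSP2 was then not tested. Leaving out 1 library, 3 to 5 of the genes had groups that did not overlap, and 4092 to 5114 of all genes were called. With the replicate number as a block, 2 genes were called higher and 1 lower, and 4946 of all genes were called. Same-numbered libraries correlated in their deviations from the group means at 0.19, -0.17 and -0.092, and not every library correlated best with its own number. Pairing by number was thus not visible, but with so few libraries per group this check could miss a shared batch. With columns rescaled to the same total, 2942 genes were higher and 2278 lower, and the median of all genes was 0.04. ELK3, GAB1 and MAP3K8 lost their calls under that scaling (limma adjusted p = 0.0627, 0.0941 and 0.0754). Of 633 values of the 49 other named genes under the alternatives, 596 kept their side of the threshold, 36 lost the call and 1 gained it, and none changed sign. The planned count-based tests were not run. All values were whole multiples of 1 step per column, but too few low values were available for a further check that the step is 1 read. Genes with few reads, such as DUSP2, allow wide intervals.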
